A study of Mus musculus with 12 samples.

Results

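CD4SP thymocytes were compared with CD8SP thymocytes, the helper and cytotoxic products of αβ T cell selection in the thymus, across all measured genes. The means compared come from 6 of the 12 arrays of the series, chosen by their titles: 3 of CD4SP cells and 3 of CD8SP cells. The spread behind each SE and p-value was estimated from all 12 arrays, those of the other sorted subsets included. All 18193 genes with a usable probe set were tested, so no gene entered the comparison by its value. All cells came from C57BL/6 mice and were sorted by flow cytometry, untreated and uncultured. CD4SP cells carried CD4 and high TCRβ but not CD8α, CD8SP cells carried CD8α and high TCRβ but not CD4, and DP cells, the stage before both, carried CD4 and CD8α together. Each value is a log value, read here as log2, from which the average of the 3 DP arrays has been taken away. DP therefore lies at 0 for each gene, and a value above or below 0 is a gain or a loss relative to DP. Whether replicates stem from different mice is not given in the labels. The p-values therefore cover array-to-array spread alone, and the number of arrays limits their precision.

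Thymocytes that carry both coreceptors test their T cell receptor on MHC molecules of the thymic stroma. Cells whose receptor binds MHC class II keep CD4 and shut off CD8, and become helper or regulatory T cells. Cells whose receptor binds MHC class I keep CD8 and shut off CD4, and become cytotoxic T cells. The zinc finger protein ThPOK, encoded by Zbtb7b, is the best known factor of the CD4 fate, and it is induced downstream of Gata3 and Tox. Runx3 is the best known factor of the CD8 fate, silences Cd4 and activates Itgae. A transcript can thus differ between the subsets because one of them gained it after the DP stage, because the other lost it, or both.

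Cd4 and Cd8a, the coreceptor genes used for the sort, differed as the gates require. Cd8b1, which was not a sort marker, went with Cd8a, and each of these differences came from a loss. Cd4 had -0.76, -0.65 and -0.52 on the CD4SP arrays, against -8.39, -9.20 and -9.12 on the CD8SP arrays, with DP arrays between -0.16 and 0.16. The difference was 8.26 ± 0.50 (CD4SP minus CD8SP, log2 ± SE of the limma fit to all arrays, 3 per subset), a 307-fold difference with an adjusted p of 5.68e-06. The subsets were far apart and CD4SP stayed near DP, so Cd4 was lost in CD8SP. Cd8a had -6.35, -6.84 and -6.42 in CD4SP, against -0.43, -0.37 and -0.20 in CD8SP, a difference of -6.20 ± 0.38. Cd8b1, the CD8β chain gene, had -5.66, -5.46 and -5.19 in CD4SP, against -0.81, -0.49 and -0.52 in CD8SP, a difference of -4.83 ± 0.29. Both CD8 chains were lost in CD4SP, while CD8SP lay close to DP. Expression levels are not visible in values relative to DP, so it could not be seen whether a lost transcript had reached the background of the array.

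One CD8SP array stood apart from the others. CD8SP replicate 1 had a mean of 0.84 over the hybridisation control probe sets, against -0.16 to 0.08 on the other 11 arrays of the series. Its Gapdh control, 3′ minus 5′ probe set in values relative to DP, gave 0.37, more than on any other array. The limma weight of CD8SP replicate 1 was 0.28, the smallest of all. Without that array 1425 genes were called higher in CD4SP and 1364 lower, and 1963 genes were called both with and without it, 0 of them with the opposite sign. The count of lower genes was 893 with all arrays, and it was 536 and 563 without CD4SP replicate 2 or 3 and 559 and 538 without CD8SP replicate 2 or 3, while the count of higher genes was 811 without CD4SP replicate 3.

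With all arrays 2308 of 18193 genes (12.7%) passed limma's test after Benjamini-Hochberg adjustment (adjusted p under 0.05), and these are termed called. Of these 1415 were higher in CD4SP (7.78% of all genes) and 893 were lower (4.91%). When the fit used only the arrays compared, 828 genes were called higher in CD4SP and 520 lower. Calls in the main fit thus also depend on the spread of the other subsets, and a gene can miss its call through that spread. Most differences were small: the median absolute difference of called genes was 0.54, and 167 genes were at least 2-fold higher and 159 at least 2-fold lower in CD4SP. For 5512 genes (30.3%) all CD4SP arrays lay on one side of all CD8SP arrays, and 2297 of these were called. Under quantile normalization of the CD4SP and CD8SP arrays alone, a setting added after the data were seen, 1107 genes were higher and 1171 lower, so the excess of higher calls depends on the scaling. Of 8344 genes called against DP in either subset, 2149 were also called between the subsets and 6195 were not.

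Each called gene was assigned a gain or a loss by whether its departures from DP were themselves called. Both departures use the same 3 DP arrays, so the classes are a description and carry no test. Among genes higher in CD4SP, 494 (34.9%) were lost in CD8SP alone, and 369 (26.1%) were lost in both subsets but further in CD8SP. A further 245 genes (17.3%) were gained in CD4SP alone, and 180 (12.7%) were gained in both but further in CD4SP. Among genes lower in CD4SP, 210 (23.5%) were gained in CD8SP alone, 210 (23.5%) were gained in both but further in CD8SP, 195 (21.8%) were lost in CD4SP alone, and 180 (20.2%) were lost in both but further in CD4SP. These shares depend on the scaling. Under quantile normalization of the CD4SP and CD8SP arrays alone, genes higher in CD4SP were 24.8% lost in CD8SP alone, 22% lost in both, 24.7% gained in CD4SP alone and 18.4% gained in both. Genes lower in CD4SP were then 16.4% gained in CD8SP alone, 16.7% gained in both, 31% lost in CD4SP alone and 23.7% lost in both.

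Few genes moved in opposite directions. There were 38 genes gained in CD4SP and lost in CD8SP (2.69%) and 28 gained in CD8SP and lost in CD4SP (3.14%), and 89 and 70 called genes had neither departure called. Of the genes at least 2-fold higher in CD4SP, 40 were gained in CD4SP alone, 43 gained in both, 30 lost in CD8SP alone and 29 lost in both. Of those at least 2-fold lower, 34 were gained in CD8SP alone, 46 gained in both, 30 lost in CD4SP alone and 31 lost in both. A departure that was not called is not shown to be 0, and for 19 of the 103 called genes named by the rule for this report, the call of at least 1 departure changed when 1 DP array was left out. They were Ptgir, Tnfrsf4, Sytl2, Ephx4, Nkg7, Klrd1, Plac8, Lcp2, Cd247, Stat5b, Satb1, Cd1d1, Tdrp, Tapbpl, Ctla4, Zbtb16, Il4, Pecam1 and Dusp1.

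**Figure D1:**
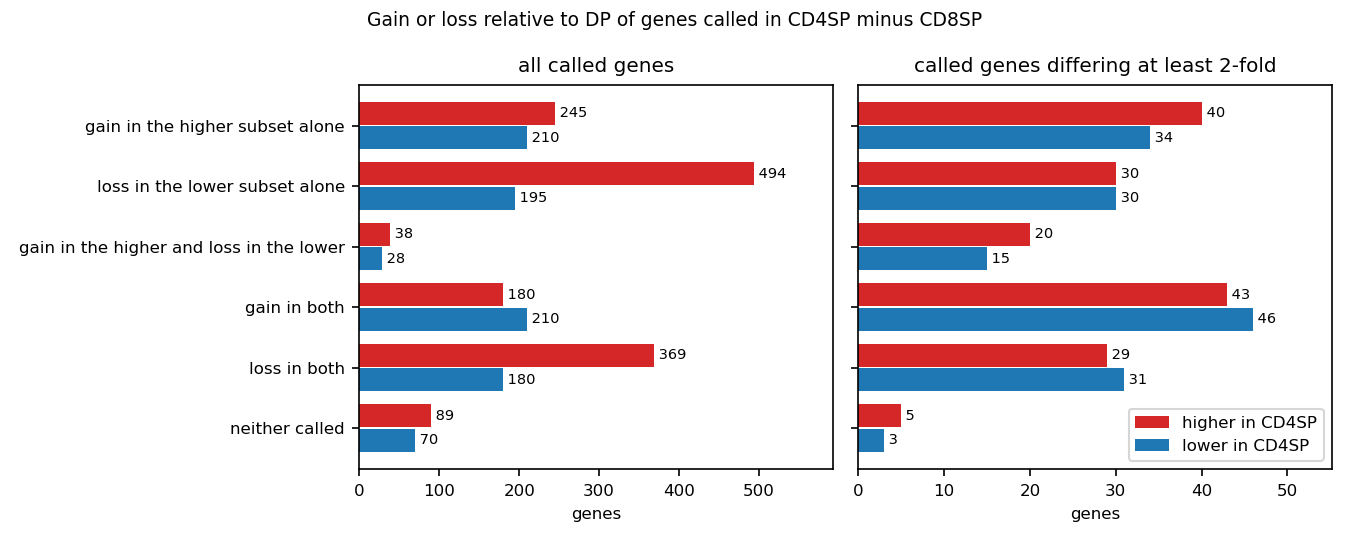
Numbers of genes called in CD4SP minus CD8SP, by gain or loss relative to DP, on the x axis, with a red bar for genes higher in CD4SP and a blue bar for genes lower in CD4SP, for all called genes on the left and for those that differ at least 2-fold on the right. The longest bar is the 494 genes higher in CD4SP through a loss in CD8SP alone, and among the larger differences gains in both subsets are the most frequent (43 and 46 genes).

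**Figure D2:**
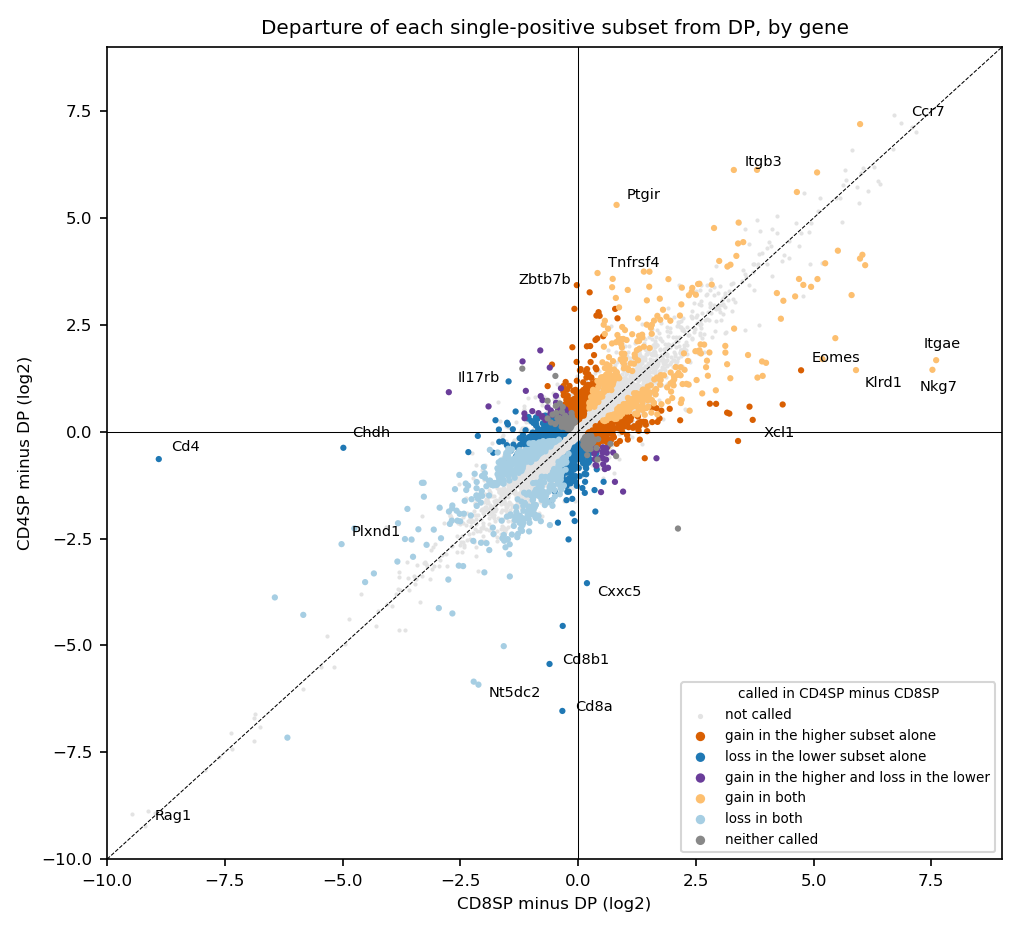
Mean departure from DP (log2) of each gene in CD4SP, on the y axis, and in CD8SP, on the x axis, 1 point per gene, coloured by class where the difference between the subsets was called. Points on the dashed line do not differ between the subsets. Cd4, Cd8a and Cd8b1 lie near 1 axis through a loss, Nkg7 and Itgae far to the right, and Rag1 and Ccr7 on the line.

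The largest differences in favour of CD4SP after Cd4 were of several kinds. Chdh, choline dehydrogenase, had -0.30, -0.52 and -0.31 in CD4SP, against -4.43, -5.26 and -5.26 in CD8SP, a difference of 4.61 ± 0.19 (adjusted p = 4.62e-07). Like Cd4 it stayed near DP in CD4SP and was lost in CD8SP. Ptgir, the prostacyclin receptor, had 5.21, 5.26 and 5.44 in CD4SP, against 0.68, 1.04 and 0.72 in CD8SP, a difference of 4.49 ± 0.27 (adjusted p = 5.68e-06). It was gained in both subsets, far more in CD4SP, and the call of a departure from DP changed when 1 DP array was left out. Il17rb, a chain of the IL-25 receptor, had 1.08, 0.86 and 0.83 in CD4SP, against -2.10, -3.20 and -2.93 in CD8SP, so that a gain and a loss added up to 3.67 ± 0.24. Il17rb and Chdh are neighbouring genes on chromosome 14.

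Gains in CD4SP alone were led by Myo6, an unconventional myosin, Zbtb7b, and Chl1, a neural cell adhesion molecule. Myo6 had 3.67, 3.29 and 3.33 in CD4SP, against 0.30, -0.10 and -0.29 in CD8SP, a difference of 3.46 ± 0.34. Chl1 had 2.99, 2.70 and 2.93 in CD4SP, against -0.12, -0.13 and 0.02 in CD8SP, a difference of 2.95 ± 0.11. For both genes CD8SP lay close to DP. The 4 probe sets of Chl1 differed by 3.67, 5.84, 2.26 and 0.04, so 1 of them did not move.

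Both sialyltransferase genes among the leading 15 were gained in CD4SP, in different classes. St8sia6 was gained in both subsets, with 3.45, 3.64 and 3.63 in CD4SP, against 0.71, 0.80 and 0.70 in CD8SP. St3gal2 was gained in CD4SP (1.64, 1.57 and 1.72) and lost in CD8SP (-1.27, -1.01 and -1.26), a difference of 2.82 ± 0.13. Itgb3, the integrin β3 chain, was gained in both, with 6.06, 6.13 and 6.18 in CD4SP, against a mean of 3.31 ± 0.28 in CD8SP (SD, n = 3), a difference of 2.82 ± 0.33. The remaining leading genes were Tnfrsf4, described with the helper genes, Sytl2, a synaptotagmin-like protein of vesicle transport (2.66 ± 0.25, gained in both), H2-Q2, an MHC class Ib gene (2.56 ± 0.22, lost in both), Ephx4, an epoxide hydrolase family gene (2.49 ± 0.20, gained in CD4SP and lost in CD8SP), and F13a1, the coagulation factor XIII A chain (2.49 ± 0.17, lost in both).

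After Cd8a, the largest differences in favour of CD8SP were those of Nkg7 and Itgae. Nkg7, a membrane protein of cytotoxic granules, had 1.71, 1.03 and 1.61 in CD4SP, against 7.13, 7.73 and 7.71 in CD8SP, a difference of -6.08 ± 0.39 (67.4-fold, adjusted p = 7.37e-06). Itgae, the integrin αE chain that binds E-cadherin of epithelium and is also called CD103, had 1.55, 1.73 and 1.74 in CD4SP, against 7.44, 7.71 and 7.66 in CD8SP, a difference of -5.93 ± 0.40. Klrd1, the NK receptor chain CD94, had 1.40, 1.37 and 1.55 in CD4SP, against 5.19, 6.28 and 6.23 in CD8SP, a difference of -4.46 ± 0.42. All these were gained in both subsets, with much the larger gain in CD8SP. That no CD4SP array reached a CD8SP array was a condition for choosing the leading genes. For Nkg7 and Klrd1 the call of a departure from DP changed when 1 DP array was left out.

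Other genes were lower in CD4SP because CD4SP had lost them. Nt5dc2, a nucleotidase domain protein, had -5.93, -6.05 and -5.77 in CD4SP, against -2.19, -2.07 and -2.08 in CD8SP, a difference of -3.80 ± 0.12 (adjusted p = 1.48e-07), with a loss in both. Cxxc5, a CXXC zinc finger protein, had -3.58, -3.69 and -3.36 in CD4SP, against -0.09, 0.21 and 0.44 in CD8SP, a difference of -3.73 ± 0.22, with a loss in CD4SP alone. Slc6a19, a neutral amino acid transporter, was lost in both, with -6.45, -5.15 and -5.94 in CD4SP, against -3.04, -1.56 and -2.05 in CD8SP. Thus losses beside those of the CD8 chains reached several log2 units in CD4SP.

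Tubb3, a β-tubulin known from neurons, was gained in CD8SP alone, with -0.03, -0.41 and -0.22 in CD4SP, against 3.06, 3.53 and 3.59 in CD8SP, a difference of -3.61 ± 0.15. Cd79b, a chain of the B cell receptor, was lost in CD4SP alone, with -5.07, -4.09 and -4.47 in CD4SP, against -0.79, -0.11 and -0.08 in CD8SP, a difference of -4.22 ± 0.44. The immunoglobulin segment Ighv14-2 differed by -4.39 ± 1.02 with neither departure from DP called, and the call was lost when certain single arrays were left out, CD4SP replicate 1 or 2 or CD8SP replicate 2 or 3 (adjusted p between 0.005 and 0.36 over its alternatives). Genes gained in CD8SP and lost in CD4SP were led by Snai3, a Snail family repressor, with -1.82, -1.03 and -1.35 in CD4SP, against 0.68, 1.09 and 1.10 in CD8SP. Ehd1, an endocytic recycling ATPase, and Fam241a, a membrane protein, followed at -2.29 ± 0.14 and -1.96 ± 0.10.

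**Figure D3:**
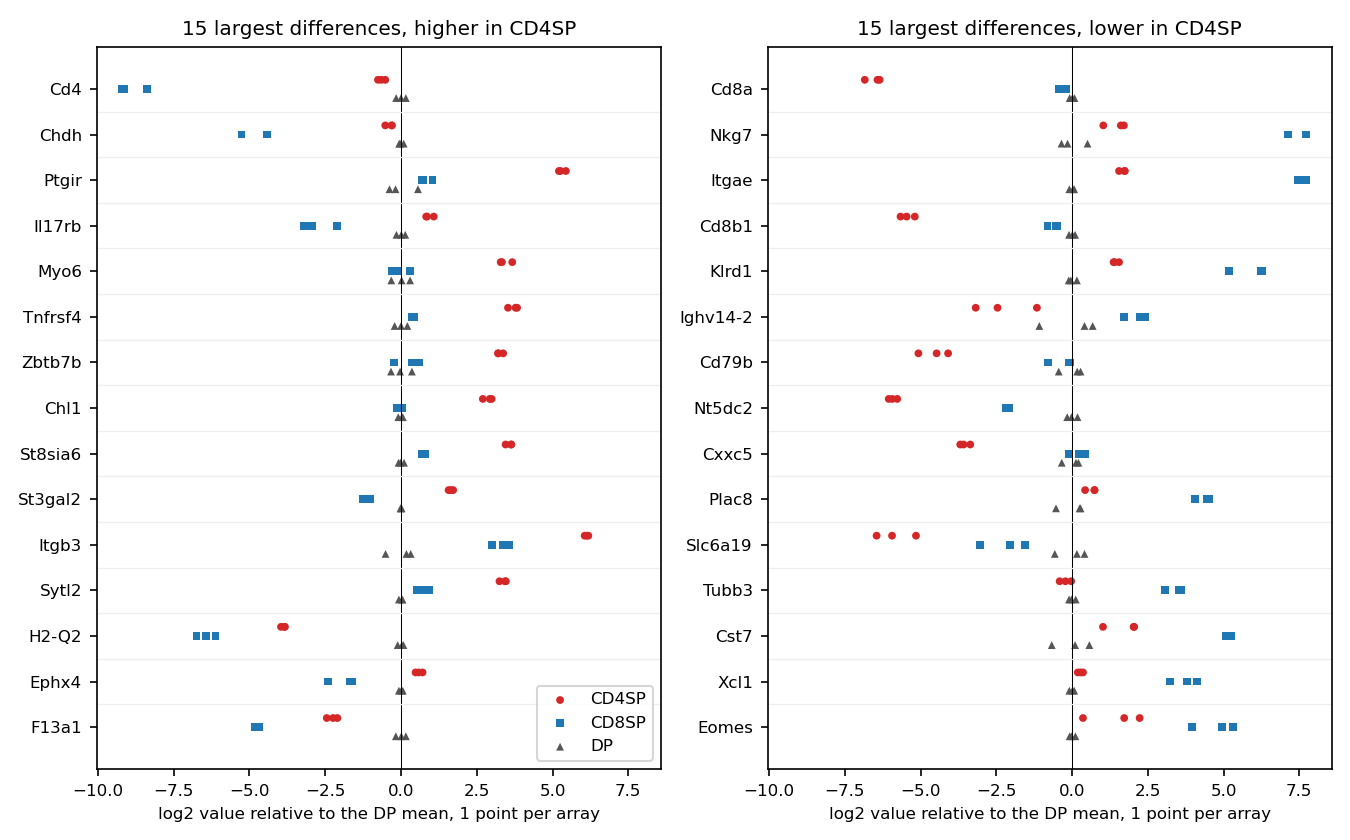
The 15 largest called differences in each direction, with the log2 value relative to the DP mean on the x axis and 1 point per array (red circles CD4SP, blue squares CD8SP, grey triangles DP, 3 arrays each). For Cd4 and Chdh the CD8SP arrays lie far left of the rest, for Ptgir, Myo6 and Zbtb7b the CD4SP arrays lie far right, and for Cd8a, Cd8b1, Cd79b and Cxxc5 the CD4SP arrays lie far left.

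Among 22 measured factors of lineage choice, 9 were higher and 2 lower in CD4SP, and 11 were not called. The called share was 50%, against 12.7% of all genes, and the median difference 0.28, against 0.03. Zbtb7b had 3.37, 3.20 and 3.21 in CD4SP, against 0.61, 0.36 and -0.23 in CD8SP, a difference of 3.02 ± 0.21 (8.08-fold, adjusted p = 1.45e-05). It was gained in CD4SP alone, and both of its probe sets differed, by 4.09 and 1.94. Runx3 had 1.26, 1.07 and 1.05 in CD4SP, against 1.98, 1.92 and 1.98 in CD8SP, a difference of -0.83 ± 0.12 (1.78-fold, adjusted p = 0.00157). Runx3 was thus gained in both subsets at the transcript level, more in CD8SP, with probe set differences of -0.39 and -1.28.

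Most of the factors that were higher in CD4SP were so through a loss in CD8SP. Gata3 had 0.67, 0.23 and 0.52 in CD4SP, against -1.36, -1.41 and -1.21 in CD8SP, a difference of 1.80 ± 0.21 (adjusted p = 0.000498). Runx1, the Runx factor of earlier stages, had -0.34, -0.26 and -0.08 in CD4SP, against -1.83, -1.54 and -1.42 in CD8SP, a difference of 1.37 ± 0.16. Ets1, an ETS family activator, and Ikzf1, which encodes Ikaros, were also lost in CD8SP alone, with differences of 0.94 ± 0.11 and 0.72 ± 0.09. Satb1, a chromatin organiser, and Bcl11b, a T lineage commitment factor, were lost in both subsets and further in CD8SP, at 0.99 ± 0.13 and 0.75 ± 0.15. The 6 probe sets of Runx1 ranged from 0.18 to 2.16. Its call was lost when only the probe set with the highest mean relative to DP, or only the least variable, was used.

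Tox, needed for CD4 lineage commitment, was gained in CD4SP alone (0.71 ± 0.16), and Lef1, an HMG box factor, was gained in both (0.40 ± 0.07). Dnmt1, the maintenance DNA methyltransferase, was lost in both and further in CD4SP (-0.37 ± 0.09), a call lost under several alternatives. The factors that were not called included Cbfb, the common partner of Runx proteins (0.02, 95% interval -0.18 to 0.21), the E proteins Tcf3 (0.00) and Tcf12 (0.21), Myb (-0.12), and the E protein inhibitors Id2 (0.49) and Id3 (-0.53). Myb lay near -4 in every array of both subsets (-4.09 to -3.92). For these genes the adjusted p was above 0.05, which does not show that the levels are alike.

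Promoter sequence was looked up for Zbtb7b, Runx3, Nkg7, Xcl1, Ptgir and Cd8a, picked by hand, because Runx proteins act on both fates. The other leading genes were not looked up singly, and the sequences printed are those with a match before the start site. RefSeq promoters of GRCm38.p6, 250 bases before to 50 bases after each start site, were searched on both strands for the Runx core TGTGGT or TGCGGT, printed in capitals, which reads ACCACA or ACCGCA where it lies on the other strand. The downstream of 2 promoters of Zbtb7b (chr3:89387622-89387921, minus strand) and the upstream of 2 promoters of Runx3 (chr4:135120395-135120694, plus strand) are shown for the lineage factors, and those of Nkg7 (chr7:43436888-43437187, plus strand) and Xcl1 (chr1:164935473-164935772, minus strand) for genes gained in CD8SP. The other promoter of Zbtb7b and that of Runx3 held 0 matches, as did that of Ptgir, and that of Cd8a held 1, at base 44 counted from the start site.
Zbtb7b: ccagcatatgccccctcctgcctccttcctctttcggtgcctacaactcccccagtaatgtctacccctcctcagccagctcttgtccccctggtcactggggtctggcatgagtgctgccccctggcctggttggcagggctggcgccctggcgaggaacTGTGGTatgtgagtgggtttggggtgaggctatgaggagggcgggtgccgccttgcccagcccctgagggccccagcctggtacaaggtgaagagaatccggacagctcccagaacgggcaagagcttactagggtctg
Runx3: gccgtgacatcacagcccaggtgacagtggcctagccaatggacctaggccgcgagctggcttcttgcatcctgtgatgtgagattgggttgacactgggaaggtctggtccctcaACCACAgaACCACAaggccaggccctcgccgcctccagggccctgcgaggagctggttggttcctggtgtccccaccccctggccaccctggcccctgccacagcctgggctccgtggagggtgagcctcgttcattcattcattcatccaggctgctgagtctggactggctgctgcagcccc
Nkg7: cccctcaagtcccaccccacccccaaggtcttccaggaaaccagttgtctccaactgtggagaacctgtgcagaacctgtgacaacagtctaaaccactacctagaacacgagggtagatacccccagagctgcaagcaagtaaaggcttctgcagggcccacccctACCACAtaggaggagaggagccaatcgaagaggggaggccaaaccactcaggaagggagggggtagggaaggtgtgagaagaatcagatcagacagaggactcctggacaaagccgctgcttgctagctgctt
Xcl1: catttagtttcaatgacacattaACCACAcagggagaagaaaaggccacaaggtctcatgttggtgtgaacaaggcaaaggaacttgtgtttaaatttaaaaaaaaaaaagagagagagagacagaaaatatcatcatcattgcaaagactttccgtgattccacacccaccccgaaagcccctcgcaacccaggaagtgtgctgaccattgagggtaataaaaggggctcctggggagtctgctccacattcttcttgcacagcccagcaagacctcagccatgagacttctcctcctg
The matches begin 89 bases before the start site in Zbtb7b, 134 and 126 bases before it in Runx3, 83 bases before it in Nkg7 and 227 bases before it in Xcl1. The core occurs in 3821 of 18109 promoters of all measured genes (21.1%). Promoters were listed for 133 of the 167 genes at least 2-fold higher in CD4SP and for 120 of the 159 at least 2-fold lower. The core occurred in 39 of 190 promoters of genes at least 2-fold higher in CD4SP (20.5%) and in 56 of 152 promoters of genes at least 2-fold lower (36.8%). The GATA motif AGATAA lay in 10.5% of the first set, 6.58% of the second and 8.09% of all, and the T-box motif AGGTGTGA in 1.58%, 2.63% and 1.07%. None of the 3 motifs contains another. Some genes have several promoters, each match is only a string of letters in these windows, and no binding was measured.

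Of the CD4 lineage and helper genes, Cd4 included, 14 of 18 measured members were called higher, 0 lower and 4 not called. The called share was 77.8%, against 12.7% of all genes, with a median of 1.30. By class, 6 were gained in both subsets, 4 gained in CD4SP alone, 2 lost in CD8SP alone, 1 gained and lost, and 1 had neither departure called. Tnfrsf4, the costimulatory receptor OX40, had 3.78, 3.53 and 3.83 in CD4SP, against 0.44, 0.36 and 0.43 in CD8SP, a difference of 3.30 ± 0.12 (adjusted p = 2.06e-07). Cd28, the main costimulatory receptor, had 0.84, 0.82 and 0.84 in CD4SP, against -0.68, -0.89 and -0.81 in CD8SP, a difference of 1.63 ± 0.11. It was gained in one subset and lost in the other, while Tnfrsf4 was a gain in both by call and almost wholly a gain of CD4SP by size. For Tnfrsf4 the call of a departure from DP changed when 1 DP array was left out.

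The chemokine receptors Ccr8 and Ccr4, the ligands Tnfsf11 (RANKL) and Cd40lg, which acts on B cells and dendritic cells, and the inhibitory receptor Ctla4 followed. Ccr8 had 6.30, 5.89 and 6.18 in CD4SP, against 3.19, 4.12 and 4.08 in CD8SP, and Tnfsf11 had 4.73, 4.75 and 4.81 in CD4SP, against 2.72, 2.82 and 3.12 in CD8SP. These genes were gained in both subsets. Ccr4 (1.71 ± 0.31) and Cd40lg (1.25 ± 0.20) were gained in CD4SP alone. Izumo1r, the folate receptor FR4 (0.96 ± 0.12), and Il6ra, the IL-6 receptor (0.91 ± 0.19), were gained in both. Of the 4 members not called, the costimulator Icos had 3.34, 3.21 and 3.35 in CD4SP, against 2.39, 2.58 and 2.52 in CD8SP, arrays that do not overlap, at an adjusted p of 0.0907.

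The CD8 lineage and cytotoxic genes were mostly lower in CD4SP: 16 of 26 measured members were called lower, 1 higher and 9 not called. The called share was 65.4%, against 12.7% of all genes, with a median of -1.23. Among the 16, 9 were gained in both subsets and 4 in CD8SP alone, 2 were the CD8 chains lost in CD4SP, and 1 was lost in both. Xcl1, a chemokine for cross-presenting dendritic cells, had 0.19, 0.36 and 0.28 in CD4SP, against 3.23, 3.79 and 4.11 in CD8SP, a difference of -3.43 ± 0.22. Eomes, a T-box factor of the CD8 and NK lineages, had 0.36, 1.72 and 2.23 in CD4SP, against 3.97, 5.30 and 4.94 in CD8SP, a difference of -3.30 ± 0.63. Both were gained in CD8SP alone, and for Eomes array number 1 was the lowest in each subset.

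Plac8, a cysteine-rich protein, was gained in CD8SP alone (-3.71 ± 0.23), and the call of a departure from DP changed when 1 DP array was left out. Gained in both were Cst7, a cysteine protease inhibitor of granules (-3.49 ± 0.35), Crtam, a nectin-binding receptor of activated cells (-2.61 ± 0.21), Dapl1 (-2.20 ± 0.22) and Ctsw, cathepsin W (-1.90 ± 0.47). Averaged over 2 probe sets, Prf1, perforin, was gained in CD8SP alone. It had -0.19, -0.01 and 0.19 in CD4SP, against 1.03, 0.82 and 0.97 in CD8SP. Its probe sets disagreed, with differences of -2.23 and 0.35, the second not called. Of other secreted effector genes, Gzmb differed by -0.68, Gzmk by -0.28, Gzmm by 0.26, Ccl5 by -0.32 and Ifng by -1.08 between CD4SP and CD8SP, none of them called. Gzma, granzyme A, was lost in both subsets, with -3.78, -4.72 and -3.88 in CD4SP, against -2.12, -3.09 and -3.66 in CD8SP, and its call did not hold without 1 of several arrays.

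Fasl, the death ligand of cytotoxic cells, went against its list. It had 1.12, 0.83 and 0.98 in CD4SP, against 0.11, 0.14 and 0.09 in CD8SP, with an adjusted p of 0.00275 and probe set differences of 0.77 and 0.96. The gain was in CD4SP alone, and Fasl was called in every setting that left out 1 array. Tbx21, which encodes T-bet, had 0.43, -0.13 and 0.54 in CD4SP, against 1.43, 0.85 and 1.14 in CD8SP, and was not called (adjusted p = 0.211).

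**Figure D4:**
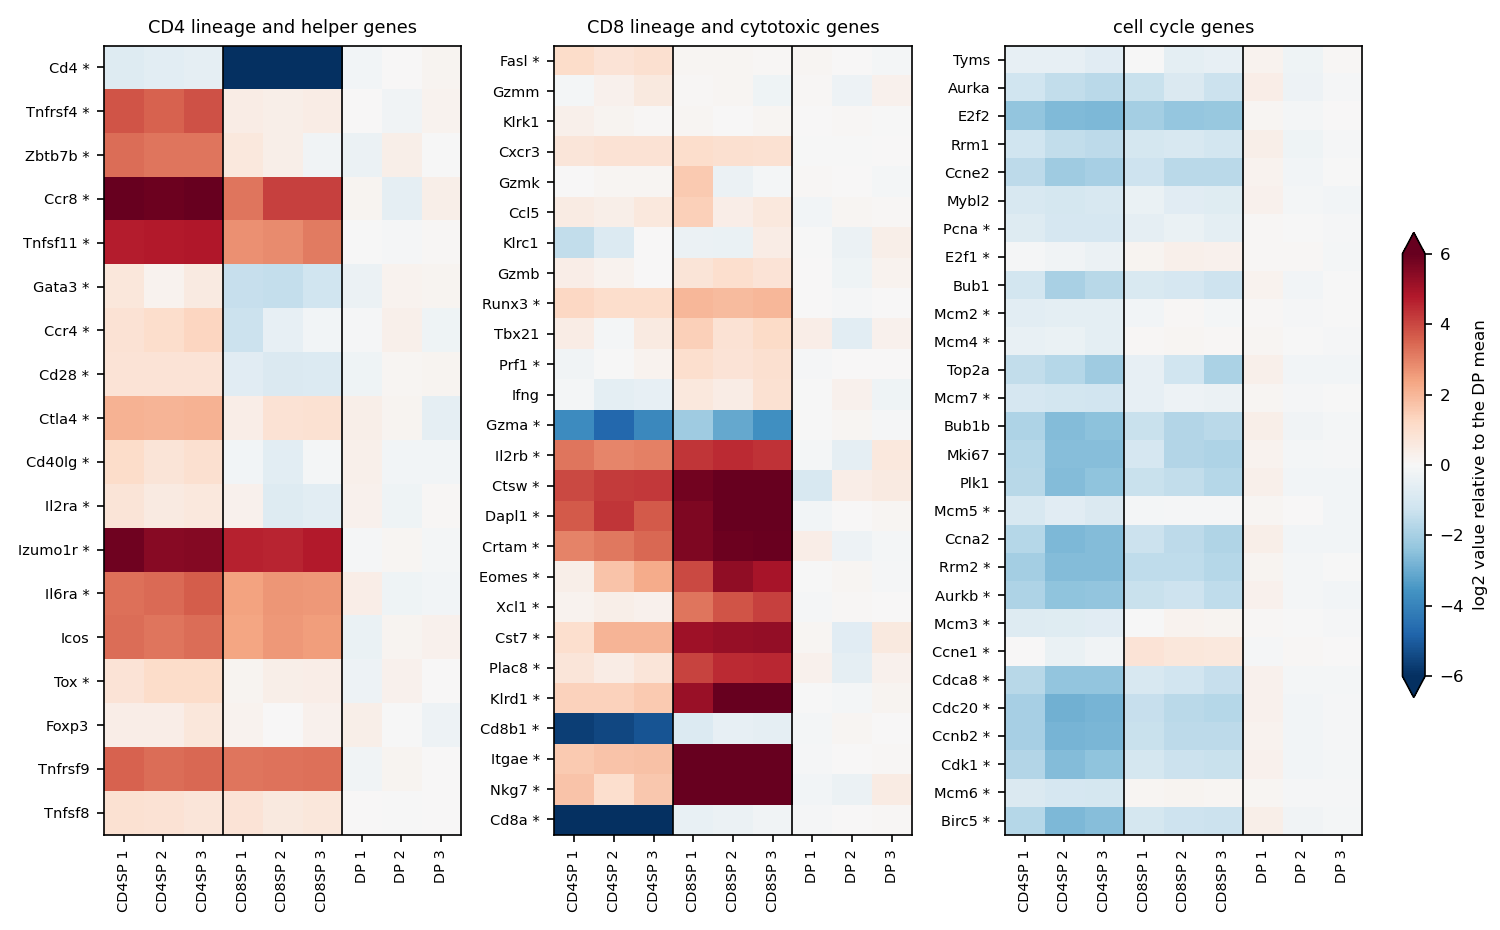
Log2 value relative to the DP mean (colour, red above and blue below DP, cut at 6) on each CD4SP, CD8SP and DP array, for the CD4 lineage and helper genes, the CD8 lineage and cytotoxic genes, and the cell cycle genes, ordered by the difference CD4SP minus CD8SP, with an asterisk for called genes. Most helper genes are redder in CD4SP, most cytotoxic genes redder in CD8SP, and all 28 cell cycle genes have a lower mean in CD4SP.

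Receptor signalling genes differed for a minority of members. Of 22 measured T cell receptor chains and proximal signalling genes, 6 were higher in CD4SP, 1 lower and 15 not called. The called share was 31.8%, against 12.7% of all genes, with a median difference of 0.31. The CD3 chains did not differ by call: Cd3e differed by 0.12 (95% interval -0.09 to 0.34), Cd3d by 0.06 and Cd3g by 0.02, as did Zap70, the kinase of the receptor (-0.01, interval -0.19 to 0.17). Cd5, an inhibitor whose level reflects receptor signal strength, had 1.87, 2.17 and 2.24 in CD4SP, against 0.51, 0.93 and 0.98 in CD8SP, a difference of 1.29 ± 0.22 with a gain in both. Its relative Cd6 was gained in CD4SP alone (0.73 ± 0.16).

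Rasgrp1, the activator of Ras in thymocytes (0.87 ± 0.15), the ζ chain Cd247 (0.79 ± 0.18) and the adaptor Lcp2, or SLP-76 (0.53 ± 0.12), were lost in CD8SP alone, and the adaptor Lat was lost in both (0.42 ± 0.10). Ptpn22, a phosphatase that restrains the receptor, was lower in CD4SP through a gain in CD8SP (-0.74 ± 0.13). These are small differences, and 2 genes of the list were called higher without CD4SP replicate 3, against 6 with all arrays.

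Of 22 selection response genes, which are induced by receptor signals, 6 were higher in CD4SP, 1 lower and 15 not called. The called share was 31.8%, against 12.7% of all genes, with a median of 0.39. Of the 6 higher genes, 5 were gained in both subsets. Itm2a, a membrane protein of positive selection, had 3.78, 3.69 and 3.76 in CD4SP, against 1.63, 1.43 and 1.48 in CD8SP, a difference of 2.23 ± 0.10 (adjusted p = 6.74e-07). Irf4, a transcription factor scaled by receptor signal, had 2.38, 2.39 and 2.58 in CD4SP, against 0.77, 1.11 and 0.94 in CD8SP, a difference of 1.51 ± 0.21. Nr4a1, which encodes the orphan receptor Nur77, had 3.40, 2.96 and 2.97 in CD4SP, against 1.67, 1.68 and 1.85 in CD8SP, a difference of 1.38 ± 0.28. For these genes CD8SP lay between DP and CD4SP.

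Nfkbid, an atypical IκB protein, was gained in both (0.83 ± 0.12), and Bcl2l11, the death protein Bim, was called with neither departure called (0.58 ± 0.16). The remaining Egr and Nab genes were gained in both subsets without a called difference between them, as for Egr1 (0.58), Egr2 (0.71), Egr3 (-0.16), Nab1 (0.20) and Nab2 (0.56). Cd69 differed by 0.38 and was not called. Nr4a2 was lower in CD4SP (-0.37 ± 0.10), a call lost under most alternatives (adjusted p between 0.0149 and 0.588).

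Of 16 maturation and egress genes, 2 were called higher in CD4SP, 0 lower and 14 not called (12.5% called, against 12.7% of all genes), and the median departure from DP was 3.69 in CD4SP and 3.67 in CD8SP. Klf2, the factor that opens egress, had 5.40, 5.40 and 5.58 in CD4SP, against 5.29, 5.65 and 5.74 in CD8SP, a difference of -0.10 (95% interval -0.78 to 0.58). The receptors Ccr7 (0.38, interval -0.96 to 1.73) and S1pr1 (0.25, interval -0.56 to 1.05) and the survival gene Bcl2 (0.03, interval -0.29 to 0.35) were gained strongly in both, and their arrays overlapped between the subsets. Il7r, the IL-7 receptor, had 7.11, 7.25 and 7.23 in CD4SP, against 6.00, 6.03 and 5.94 in CD8SP, a difference of 1.21 ± 0.36 whose adjusted p was 0.0499. The SD of Il7r was 0.073 in CD4SP and 0.044 in CD8SP, but its SE draws on all arrays. Its DP arrays spread from -0.70 to 0.59, and its adjusted p over the alternatives lay between 0.00103 and 0.658. Cd24a, a surface marker that falls with maturation, fell in both subsets and further in CD8SP (0.42 ± 0.10, adjusted p = 0.0205), also a call lost under several alternatives. Without any 1 array of either subset, 0 or 1 of the 16 genes were called higher.

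Of 16 genes of the DP stage, 4 were higher and 2 lower in CD4SP (37.5% called, against 12.7% of all genes). The recombinase gene Rag1 had -9.09, -9.27 and -9.34 in CD4SP, against -9.01, -9.44 and -9.16 in CD8SP, a difference of -0.03 (95% interval -0.30 to 0.24). Rag2 (0.51), Dntt, terminal transferase (-0.03), and Arpp21 (-0.37) were likewise lost in both without a called difference. Plxnd1, a semaphorin receptor, had -2.63, -2.75 and -2.52 in CD4SP, against -4.83, -5.59 and -4.65 in CD8SP, a difference of 2.39 ± 0.23. Plxnd1, Satb1, the survival gene Bcl2l1 (0.88 ± 0.15) and the antigen-presenting Cd1d1 (0.62 ± 0.12) were all lost further in CD8SP. Tdrp and Mns1, a meiosis gene, were lower in CD4SP (-1.21 ± 0.24 and -0.70 ± 0.15), and Tdrp was gained in both subsets rather than lost. For Tdrp, Satb1 and Cd1d1 the call of a departure from DP changed when 1 DP array was left out.

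Chemokine receptors and integrins split by gene. Of 21 measured, 6 were higher in CD4SP and 2 lower (38.1% called, against 12.7% of all genes), with a median of 0.38. Beside Itgb3, Ccr8 and Ccr4, the LFA-1 chains Itgb2 (0.70 ± 0.10, gained in both) and Itgal (0.61 ± 0.12, gained in CD4SP alone) and the β1 chain Itgb1 (0.54 ± 0.08, lost in both) were higher in CD4SP. Itgae and Cxcr6, a receptor of tissue-resident and innate-like T cells, were the 2 lower genes. Cxcr6 had 2.04, 2.14 and 2.39 in CD4SP, against 4.71, 5.87 and 5.81 in CD8SP, a difference of -3.27 ± 0.56.

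Of 19 common γ chain cytokine receptors and JAK and STAT genes, 5 were higher and 2 lower in CD4SP (36.8% called, against 12.7% of all genes). The list includes JAK and STAT genes of other cytokines, such as Jak2 and Stat4, so this share is not one of γ chain signalling alone. Stat5b was lost in both and further in CD8SP (0.99 ± 0.14), Jak2 was gained in CD4SP alone (0.64 ± 0.11), and Stat3, a STAT of IL-6 signalling, had a called difference of 0.29 ± 0.09 with neither departure called. Il2ra, the IL-2 receptor α chain, had 0.78, 0.56 and 0.64 in CD4SP, against 0.24, -0.78 and -0.62 in CD8SP. Opposite to it, Il2rb, the β chain shared by IL-2 and IL-15, had 3.23, 2.92 and 3.03 in CD4SP, against 4.27, 4.47 and 4.33 in CD8SP, and Stat4, the STAT of IL-12, had -0.03, -0.09 and 0.18 in CD4SP, against 1.07, 1.40 and 1.38 in CD8SP. Stat4 was gained in CD8SP alone (-1.26 ± 0.20), and the calls of Il2ra, Il2rb and Il7r were lost in 11, 10 and 11 of 19 alternatives. Leaving out any single array of either subset except CD8SP replicate 1 left 2 genes called higher, and leaving out any of the 6 left 1 called lower.

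The TNF family was one-sided among its called members: of 18 measured, 6 were higher in CD4SP, 0 lower and 12 not called. Among the 6 are Tnfrsf4, Tnfsf11 and Cd40lg, already described with the helper genes, and Fasl, described with the cytotoxic genes. The called share was 33.3%, against 12.7% of all genes, with a median of 0.24. Tnfrsf18, the GITR receptor, neighbours Tnfrsf4 on chromosome 4 and had 2.16, 2.02 and 2.25 in CD4SP, against 0.63, 1.17 and 1.29 in CD8SP, a difference of 1.12 ± 0.22 with a gain in both. Tnfrsf25, or DR3, was likewise gained in both (0.89 ± 0.21). Tnfrsf9, or 4-1BB, had 3.56, 3.37 and 3.43 in CD4SP, against 3.21, 3.24 and 3.29 in CD8SP and was not called, although the arrays do not overlap.

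Cell cycle genes were lower in CD4SP: 16 of 28 measured were called lower, 0 higher and 12 not called. The called share was 57.1%, against 12.7% of all genes, and the median -0.73, against 0.03. By class, 9 were lost in both subsets and further in CD4SP, 5 were lost in CD4SP alone, 1 was gained in CD8SP alone and 1 had neither departure called. The replication helicase genes gave the smallest spreads. Mcm6 had -0.87, -1.02 and -1.07 in CD4SP, against 0.11, 0.16 and 0.14 in CD8SP, a difference of -1.12 ± 0.09 (adjusted p = 3.85e-05). Mcm2 (-0.53), Mcm3 (-0.84), Mcm4 (-0.55) and Mcm5 (-0.75) were likewise lost in CD4SP alone, and Mcm7 was lost in both (-0.71 ± 0.09). For Mcm2 to Mcm6 the departure of CD8SP from DP was not called.

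Mitotic genes were lost in both subsets. Birc5, or survivin, had -1.73, -2.68 and -2.55 in CD4SP, against -1.04, -1.22 and -1.30 in CD8SP, a difference of -1.13 ± 0.24. Cdk1, the mitotic kinase, had -1.77, -2.62 and -2.43 in CD4SP, against -1.04, -1.27 and -1.34 in CD8SP, a difference of -1.05 ± 0.21. In both genes CD4SP replicate 1 lay closest to CD8SP. Mki67 (-0.73) and Top2a (-0.57), markers of dividing cells, were not called. Ccne1, cyclin E1, was gained in CD8SP alone, with 0.04, -0.40 and -0.22 in CD4SP, against 0.82, 0.67 and 0.62 in CD8SP. In sorted populations, fewer dividing cells and less of these transcripts per cell cannot be told apart.

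Of 18 interferon-stimulated genes, 2 were higher in CD4SP and 0 lower, and 16 were not called, a called share of 11.1% that is near the 12.7% of all genes, while the median departure from DP was 2.65 in CD4SP and 2.68 in CD8SP. Oas2, an antiviral RNA sensor, was gained in both (0.75 ± 0.14), and Stat2 was lost in CD8SP alone (0.67 ± 0.09), while Ifit1 differed by -0.08 (95% interval -1.06 to 0.91). Of 16 MHC class I genes, 0 were higher and 1 lower, the tapasin relative Tapbpl (-0.71 ± 0.15, gained in CD8SP), and 15 were not called (6.25% called). Without CD8SP replicate 1, 5 of the 16 were called lower in CD4SP. H2-K1 averaged 3.92 ± 0.07 in CD4SP and 4.01 ± 0.11 in CD8SP (SD, n = 3 each), a difference of -0.09 (95% interval -0.54 to 0.35).

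Markers of other cells were examined beside these results. Both gates required high TCRβ, which B, NK, innate lymphoid, myeloid and γδ T cells lack, whereas regulatory and invariant NKT cells carry TCRβ. How far the sort removed cells without TCRβ was not tested. Of 9 regulatory T cell markers 7 were higher in CD4SP, 1 lower and 1 not called (88.9% called, against 12.7% of all genes). The mean over the list lay between 1.84 and 2.03 on the CD4SP arrays, against 0.74 to 0.83 on the CD8SP arrays. Several of them also stand in the helper list (Tnfrsf4, Ctla4, Il2ra, Izumo1r, Foxp3). Foxp3, the defining factor, had 0.41, 0.39 and 0.68 in CD4SP, against 0.20, 0.00 and 0.28 in CD8SP, and was not called (0.33, 95% interval -0.02 to 0.68). Nrp1, a semaphorin coreceptor, was lost in both and further in CD8SP (1.82 ± 0.14), Gpr83 was gained in both (1.01 ± 0.17), and Ikzf2, which encodes Helios, was lower in CD4SP through a gain in CD8SP (-0.59 ± 0.14). The Ikzf2 call was lost without CD4SP replicate 2 or 3 or CD8SP replicate 2 or 3. Its probe sets differed by -0.77, -0.72 and -0.29. The part of regulatory cells in the differences of the helper genes was not tested.

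Of 9 markers of invariant NKT and innate-like T cells, 3 were higher and 4 lower in CD4SP. The called share was 77.8%, against 12.7% of all genes. The list mean lay between 0.71 and 0.93 on the CD4SP arrays, against 1.48 to 1.64 on the CD8SP arrays. Zbtb16, which encodes the innate-like factor PLZF, had 2.46, 2.53 and 2.52 in CD4SP, against 0.77, 0.44 and 0.41 in CD8SP, a difference of 1.96 ± 0.18. Its 3 probe sets gave 5.07, 0.85 and -0.04, so the mean rests on the first. Il4 (0.58 ± 0.11, gained in CD4SP) and the SLAM receptor Slamf1 (0.63 ± 0.14, lost in both) were higher too. Eomes, Cxcr6, Il2rb and Slamf6 (-0.48 ± 0.08) were lower.

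Of 11 NK and innate lymphoid markers, 0 were higher and 3 lower in CD4SP, 27.3% called against 12.7% of all genes. The 3 were Klrd1, Prf1 and Gzma, while the defining receptor Ncr1 (-0.06) and the adaptor Tyrobp (-0.01) were not called. The list mean lay between -0.33 and 0.06 on the CD4SP arrays, against 0.60 to 0.62 on the CD8SP arrays. Of 11 B cell markers, 0 were higher and 2 lower (18.2% called, against 12.7% of all genes), Cd79b and Ighm (-0.39 ± 0.09), and the other chain and surface markers Cd79a (-0.06) and Ms4a1 (-0.27) were not called. Among the 11 probe sets of Ighm, the largest differences were -1.70 and -1.45, and the others lay between -0.375 and 0.017. The Ighm call was lost in 8 of 19 alternatives. The part of NK, innate lymphoid and B cells in the cytotoxic genes and in Cd79b was not tested.

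Of 5 γδ T cell markers, 1 was higher, the transcription factor Maf (0.66 ± 0.17), whose 6 probe sets ranged from -0.22 to 2.62 and whose call was lost without any 1 CD4SP array or without CD8SP replicate 1 or 2. Of 17 myeloid and dendritic markers and 3 erythroid markers 0 were called, by limma at an adjusted p under 0.05, with medians of 0.07 and 0.36. Of 12 stromal markers only Pecam1, an adhesion molecule that T cells also carry, was called (0.93 ± 0.23, lost in CD8SP), and not without CD4SP replicate 2 or 3 or CD8SP replicate 1 or 2. Among 4 sex-linked genes the Y-linked Uty (0.58 ± 0.08) and Kdm5d (0.41 ± 0.11) were higher in CD4SP through a loss in CD8SP, the second of them a call lost under most alternatives, while Eif2s3y (0.09) and Xist (0.01) were not called. Of 15 dissociation and heat shock genes only Dusp1, a MAP kinase phosphatase, was called, with 1.07, 0.92 and 1.06 in CD4SP, against -0.59, -0.22 and -0.28 in CD8SP, gained in the one and lost in the other. The called shares were 20% of γδ, 8.33% of stromal, 50% of sex-linked and 6.67% of dissociation markers, against 12.7% of all genes.

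**Figure D5:**
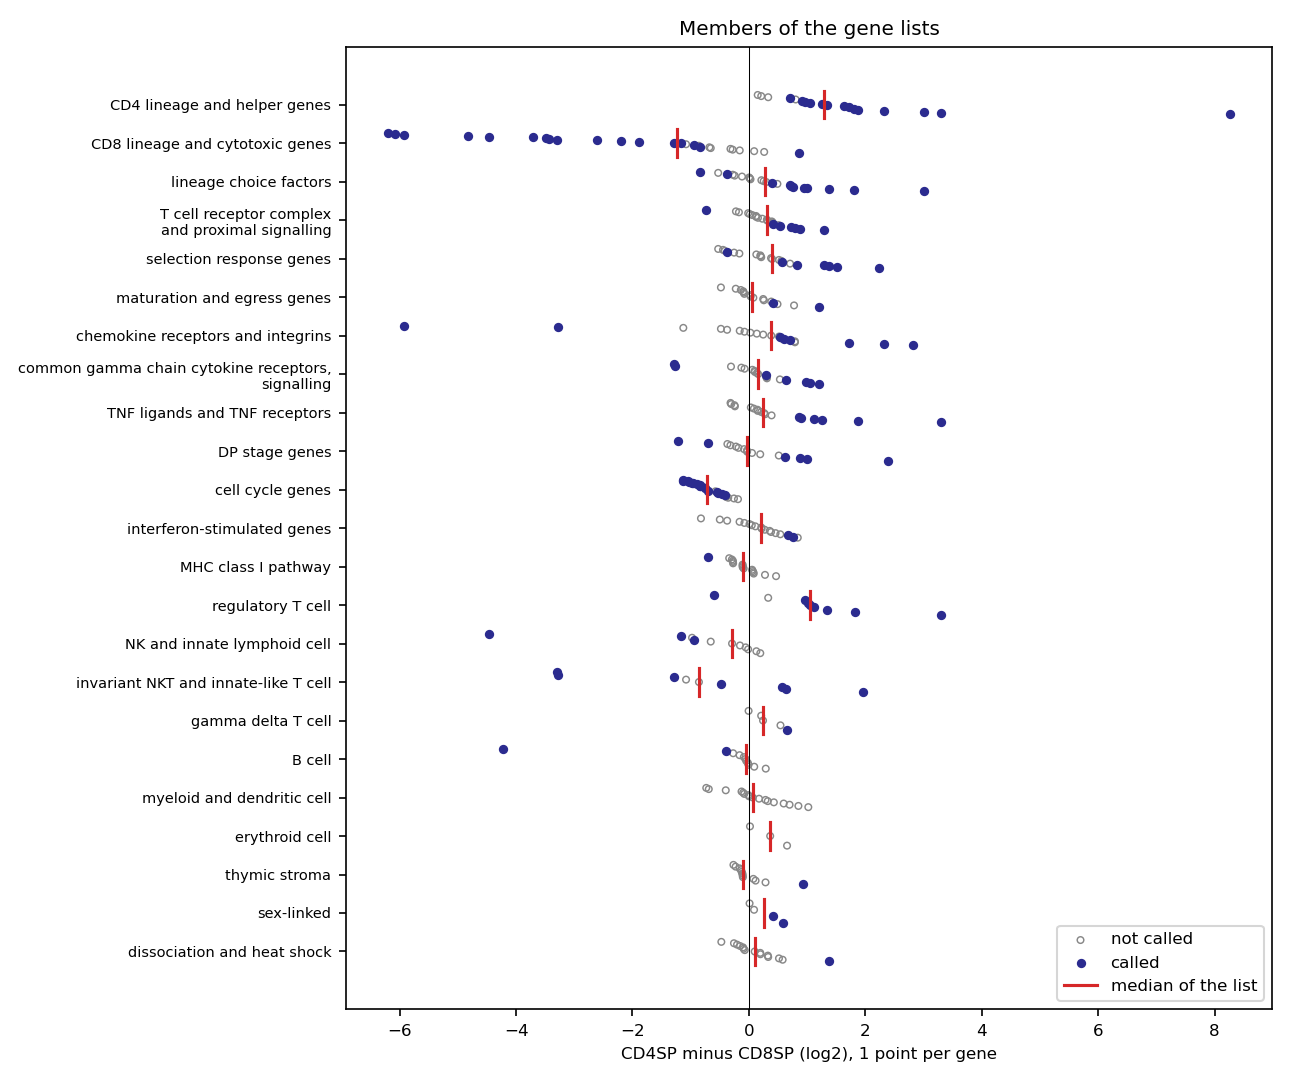
Difference CD4SP minus CD8SP (log2) on the x axis for each measured member of each gene list, 1 point per gene, filled where called, with a red line at the list's median. The helper genes lie right of 0 and the cytotoxic and cell cycle genes mostly left of it, while the maturation, interferon and MHC class I genes and the markers of myeloid, erythroid and stromal cells scatter around 0.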

How the data were processed

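The data are Affymetrix mouse expression arrays, 3 for each of 4 sorted thymocyte subsets. The authors deposited log2 values (the base is not stated and was read from the values), centred per probe set on the mean of the 3 DP arrays: the largest absolute DP mean was 1.27e-06. The submitters' processing notes name MAS5 without a version. Levels were lost in the centring, so no filter on low values was possible, and a fall may be cut short at background.

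Of 45101 probe sets, 34958 had exactly 1 symbol in the platform annotation, 932 several and 9211 none. Without controls 34945 were averaged into 18193 genes, of which 9183 had 1 probe set, and 34741 matched RefSeq GRCm38.p6 names. limma 3.58.1 in R 4.3.3 fitted 4 group means over 12 arrays, with eBayes and Benjamini-Hochberg adjustment over all genes. Genes with an adjusted p below 0.05 are termed called. The fit was tested on simulated data. Intervals are 95%.

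Named genes are Cd4, Cd8a and Cd8b1, and the 15 largest called differences each way with arrays that do not overlap. The 3 largest of each class were added, and clone and predicted identifiers were passed over in both. Also named are up to 5 per list by lowest adjusted p, called members against their list and defining markers. Other list members are named for context. The lists, members and comparison were chosen with earlier results of these data known. List members with no usable probe set were not analysed here.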

Additional observations from a re-analysis of the deposited data

Results flagged for a closer look

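Among the genes described by name, 8 departed from DP in opposite directions in the subsets, with both departures called, and for each the difference between the subsets is itself the tested value. Those gained in CD4SP and lost in CD8SP were Il17rb (difference 3.67), St3gal2 (2.82), Ephx4 (2.49), Cd28 (1.63) and Dusp1 (1.38). Those lost in CD4SP and gained in CD8SP were Snai3 (-2.36), Ehd1 (-2.29) and Fam241a (-1.96). For Ephx4 and Dusp1 the call of a departure from DP changed when 1 DP array was left out. The hybridisation control probe sets, which no comparison uses, had a mean of 0.84 on CD8SP replicate 1, against -0.16 to 0.08 on the other arrays.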

How the results depend on the processing

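Of the 103 called genes named by the rule, 86 to 98 kept their call without any 1 array, 99 with a replicate block, 102 with array weights, 100 after centring arrays on their medians, 90 with only the arrays compared, 89 and 91 when each gene was read from its highest-mean or its least variable probe set, and 43 under quantile normalization of all 12 arrays. The highest-mean probe set was picked on values relative to DP, over all 12 arrays. It is therefore not the most abundant probe set, and the choice itself leans towards gains and away from losses. The reversed values were Zbtb16 (-0.039) and Maf (-0.22), both read from the least variable probe set. The cause of each change was not tested except where the setting itself has fewer genes or arrays.

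Genes called higher in CD4SP numbered 885 on highest-mean probe sets, 293 with only genes of 1 probe set, 118 under quantile normalization, 828 with only the arrays compared, 666 at an adjusted p under 0.01, and 811 to 1425 without 1 array. Genes called lower numbered 346 with only genes of 1 probe set, 1589 with array weights, 111 under quantile normalization, 520 with only the arrays compared, 391 at an adjusted p under 0.01, and 536 to 1364 without 1 array. At 2-fold the counts were 79 higher and 94 lower with only genes of 1 probe set, 48 higher and 47 lower under quantile normalization, and 153 to 187 higher and 137 to 182 lower without 1 array. The centred DP arrays had a standard deviation of at most 0.21, against at least 0.77 on the CD4SP and CD8SP arrays, and quantile normalization over all arrays makes these spreads equal.

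When a departure from DP had to reach 1 log2 unit, the shares of genes higher in CD4SP were 8.62% gained in CD4SP alone, 10.9% lost in CD8SP alone, 0.212% gained and lost, 4.24% gained in both, 5.44% lost in both and 70.6% neither. The shares of genes lower were then 14.4% gained in CD8SP alone, 13.2% lost in CD4SP alone, 0.112% gained and lost, 7.61% gained in both, 7.39% lost in both and 57.2% neither. Under quantile normalization, genes higher in CD4SP were 38.1% gained in CD4SP alone and 15.3% lost in both, and genes lower were 39.6% lost in CD4SP alone, 5.41% gained and lost, 10.8% gained in both and 4.5% neither. The share of higher genes lost in both was 16.7% with only genes of 1 probe set. It was 16.6% on highest-mean probe sets, a choice that itself leans towards gains. The share of higher genes gained and lost was 1.35% at an adjusted p under 0.01. Without 1 array the share of higher genes gained and lost lay between 1.37% and 3.10% and of neither between 4.76% and 11.6%. For lower genes these lay between 1.67% and 3.81% and between 5.13% and 12%, gained in both between 15.8% and 24.9%, and lost in both between 12.9% and 28.7%.

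Deviations of same-numbered CD4SP and CD8SP arrays correlated at 0.12, -0.02 and 0.14, against -0.16 to 0.05 for differently numbered arrays. Neither these values nor the labels settle whether equal numbers mark matched samples. With a replicate block 1723 genes were higher and 1081 lower, and 25 cell cycle genes were lower. No filter on low values could be run, since levels were lost in the centring.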

Other observations

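Neighbouring genes with large differences were listed after the main results were seen. Of 16473 measured protein-coding genes placed in RefSeq, 309 were called with a difference of at least 2-fold. These placed genes form 16451 neighbouring pairs. In 19 pairs both genes were called at 2-fold, 14 in the same direction and 5 in opposite directions. Among the 14 were Cd8b1 (-4.83) with Cd8a (-6.20), Tnfrsf4 (3.30) with Tnfrsf18 (1.12), Cd28 (1.63) with Raph1 (1.15), and Tspan32 (1.36) with the tetraspanin gene Cd81 (1.45). Reck (-2.14), an inhibitor of metalloproteinases, neighbours Glipr2 (-2.61), and the first was gained in CD8SP alone and the second in both subsets. Opposite neighbours included St8sia6 (2.84) with Hacd1 (-2.23), the first gained in both subsets and the second lost in CD4SP alone, and Nabp1 (1.27) with Stat4 (-1.26), the first lost in both and the second gained in CD8SP alone. These pairs are given as values without a test.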
